A study of Drosophila melanogaster with 18 samples.

Results

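The genes described here are 9 patterning genes of *Drosophila melanogaster*, *en*, *inv*, *slp1*, *slp2*, *ara*, *caup*, *mirr*, *Dll* and *ey*, taken by symbol from the 16727 genes of the count files. They lie at 5 loci. *en* with *inv*, *slp1* with *slp2*, and *ara* with *caup* and *mirr* (the iroquois complex) are neighbouring duplicates, and *Dll* and *ey* stand alone. The genes were selected on their RNA-seq levels in each knockdown against WT, so those levels are given as a description without a test.

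All samples are BG3 cells, a line derived from the larval central nervous system. The RNA-seq compared 4 groups of 3 libraries, 12 in all: WT cells, cells depleted of BEAF-32 alone (BEAF-32 RNAi), cells depleted of Cp190 together with Chro (Cp190 RNAi Chro RNAi, here Cp190/Chro RNAi), and cells depleted of BEAF-32 together with Dref (BEAF-32 RNAi Dref RNAi, here BEAF-32/Dref RNAi). Knockdown was by transfection of 50 µg of double-stranded RNA and harvest after 72 hours, and the sources used here do not say whether the WT cells received a control double-stranded RNA. BEAF-32, Cp190, Chromator (Chro) and Dref are DNA-binding or bridging proteins found at borders of topologically associating domains (TADs), and RNAi lowers rather than removes them. For the 3 knockdowns, lists of TADs and chromatin loops from Hi-C of merged replicates were also read. Hi-C of WT cells was not analysed here. The labels do not say whether replicate libraries came from separate cultures, and a p-value here covers only the variation among these libraries, which may be technical.

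Polycomb group proteins hold developmental regulators in a repressed state through trimethylation of histone H3 lysine 27 over broad domains, and the engrailed, sloppy paired, iroquois, *Dll* and *ey* loci are textbook targets of this repression in flies. The duplicates of a locus share regulatory DNA and are expressed in largely overlapping patterns. All 9 genes encode transcription factors. *en* and *inv* encode homeodomain proteins of posterior compartments, *slp1* and *slp2* forkhead proteins of embryonic segmentation and of the temporal series of neuroblasts, and *ara*, *caup* and *mirr* homeodomain proteins that pattern the notum, wing and dorsal eye. *Dll* encodes the homeodomain protein that specifies distal appendages, and *ey* the Pax6 protein that starts eye development and acts in the mushroom body.

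The libraries held between 7178403 and 12202598 counts assigned to genes. The targeted genes were lower than in every WT library in every library of their knockdown, but so were *BEAF-32*, *Cp190*, *Chro* and *Dref* in the knockdowns that did not target them. BEAF-32 was at 41.0, 44.6 and 74.8 CPM (counts scaled to a common library size after TMM normalization) in the BEAF-32 RNAi libraries, against 88.6 to 92.7 CPM in WT. The third of these libraries stands apart. It had the fewest counts, the largest share of alignments to several places (29.5%, against 16.0% to 25.8% in the other 11 libraries), the highest summed level of 6 muscle markers (907 CPM, against 302 to 397 CPM in the others) and the least BEAF-32 reduction. *Chro* (101 CPM) and *Dref* (85.3 CPM), which were not targeted there, were lower in it than in any other library. Each member's fold change in BEAF-32 RNAi is therefore given with and without replicate 3, a choice made after seeing the data. Defining neuronal markers of the line's origin were mixed, since *elav* was at 77.5 ± 2.07 CPM (SD, n = 3) in WT while *VAChT* and *Cha* had no count there.

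Against WT, 8 of the 9 genes were higher in all 3 Cp190/Chro RNAi libraries than in any WT library, and 7 of 9 in BEAF-32/Dref RNAi. In BEAF-32 RNAi this held for 4 of 9 with all libraries, and for 8 of 9 with replicates 1 and 2 alone. Over the 10545 genes tested, the shares with every library above every WT library were 30.7%, 33% and 23.7% in these knockdowns, and 33% for BEAF-32 RNAi replicates 1 and 2. *Dll* alone was lower in every BEAF-32 RNAi library, and no gene was so in the other knockdowns (22.8%, 29.8% and 31.8% of all genes in BEAF-32, Cp190/Chro and BEAF-32/Dref RNAi). Since this contrast chose the genes, nothing is read from these counts. Of 1286 genes at least 2-fold above the WT mean and above every WT library in BEAF-32 RNAi replicates 1 and 2, 17.1% were not above WT in replicate 3, and of the 723 among them that were above WT in all libraries of the other knockdowns, 6.5% were not. Of the 8 members that met the first of these filters, 4 were not (*en*, *slp2*, *ara* and *mirr*). *ara*, at 0 CPM there, did not meet the second filter. Since the members were chosen on these levels, nothing is read from this count either. All 3 comparisons share the WT libraries. The median log2 fold change of the 9 genes was 2.06 in Cp190/Chro RNAi, 1.90 in BEAF-32/Dref RNAi and 2.05 in BEAF-32 RNAi, beside 0.02, 0.03 and 0.07 over all genes tested. In these bulk samples, more cells that express a gene and more RNA per cell cannot be told apart.

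**Figure D1:**
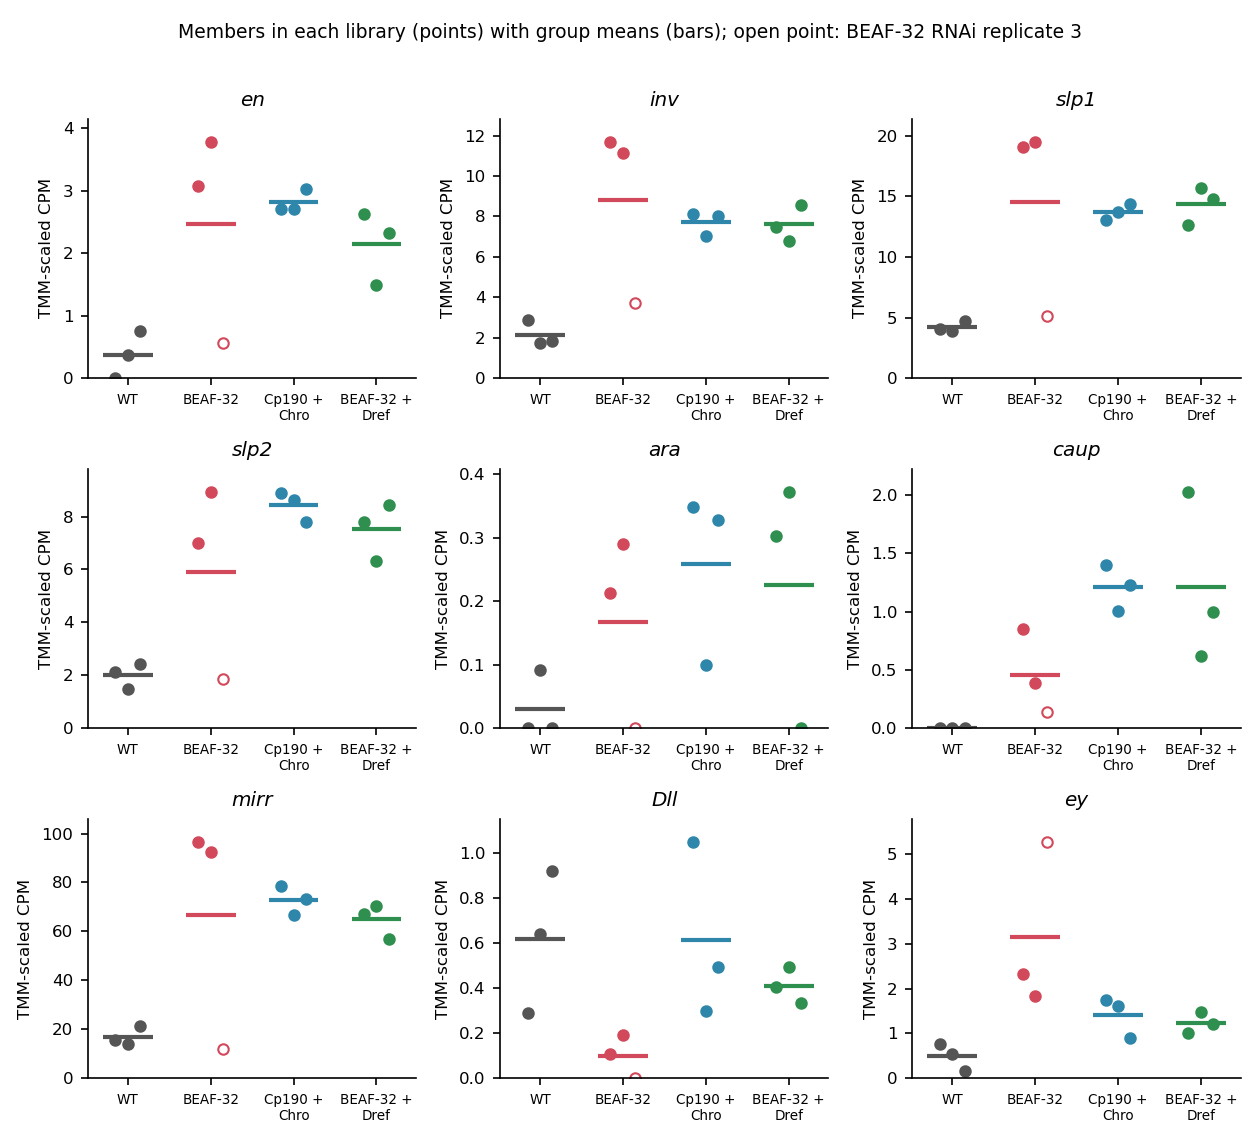
Level of each of the 9 genes in CPM after TMM scaling (vertical axis from 0, its own scale per panel) in every library of the 4 groups, with bars at the group means and an open point for BEAF-32 RNAi replicate 3. For *en*, *slp1*, *slp2* and *mirr* the open point lies among, just above or just below the WT libraries, while for *ey* it is the highest of the 12.

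At the iroquois complex, *mirr* was the most abundant of the 9 genes. In WT it was at 15.7, 14.0 and 21.5 CPM. In BEAF-32 RNAi it was at 96.3, 92.6 and 11.8 CPM, in Cp190/Chro RNAi at 78.6, 66.8 and 73.2 CPM, and in BEAF-32/Dref RNAi at 67.3, 70.6 and 57.0 CPM. Of the 9 knockdown libraries, 8 lay above every WT library, and BEAF-32 RNAi replicate 3 lay below all of them. The fitted log2 fold changes were 2.09 ± 0.52 (SE) in Cp190/Chro RNAi, 1.93 ± 0.52 in BEAF-32/Dref RNAi and 1.98 ± 0.52 in BEAF-32 RNAi. Without replicate 3 the last was 2.46 ± 0.10, and the standard errors of the other knockdowns became 0.097 and 0.099, since all libraries share 1 estimate of the spread.

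*caup* had no count in the 3 WT libraries. Its counts were 16, 10 and 15 with Cp190/Chro RNAi, 20, 5 and 9 with BEAF-32/Dref RNAi, and 8, 4 and 1 with BEAF-32 RNAi. Every knockdown library thus held at least 1 count of a gene not detected in WT, and BEAF-32 RNAi replicate 3 held the fewest. The WT group was set at 3 counts as a floor (0.0902 CPM). The ratio of *caup* to this floor was 13.5 in Cp190/Chro RNAi, 14.0 in BEAF-32/Dref RNAi and 5.38 in BEAF-32 RNAi. The last ratio was 6.74 with replicates 1 and 2 alone. The floor allows for counting error in WT but not in the knockdown, so these ratios are not lower bounds. The intervals below cover counting error only.

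*ara*, the first gene of the complex, stayed near the limit of detection. It had 1 count in WT, all in replicate 2, and 9 counts over the Cp190/Chro RNAi libraries, 6 over BEAF-32/Dref RNAi and 5 over BEAF-32 RNAi. The ratio to WT in Cp190/Chro RNAi was 8.90, with an exact 95% counting interval from 1.23 to 390. It was 7.40 (0.898 to 340) in BEAF-32/Dref RNAi and 6.21 (0.695 to 294) in BEAF-32 RNAi, and 8.42 (0.943 to 398) without replicate 3. The intervals are wide, and *ara* was chosen on these levels, so nothing is read from whether they include 1.

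At the engrailed locus, *inv* was at 2.89, 1.74 and 1.84 CPM in WT. It was at 8.11, 7.02 and 8.04 CPM in Cp190/Chro RNAi, at 7.48, 6.81 and 8.55 CPM in BEAF-32/Dref RNAi, and at 11.7, 11.1 and 3.70 CPM in BEAF-32 RNAi. All 9 knockdown libraries lay above WT, with BEAF-32 RNAi replicate 3 nearest to it. The log2 fold changes were 1.84 ± 0.37 (SE), 1.82 ± 0.38 and 2.05 ± 0.37, and the last was 2.41 ± 0.23 without replicate 3.

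The levels of its partner *en* were lower. It was at 0, 0.367 and 0.752 CPM in WT, from 0, 4 and 9 counts. With Cp190/Chro RNAi it was at 2.70, 2.71 and 3.03 CPM, in BEAF-32/Dref RNAi at 2.63, 1.49 and 2.33 CPM, and in BEAF-32 RNAi at 3.08, 3.78 and 0.569 CPM. BEAF-32 RNAi replicate 3 lay inside the WT range, and the other 8 knockdown libraries lay above it. The log2 fold changes were 2.83 ± 0.74, 2.45 ± 0.76 and 2.68 ± 0.75, the last 3.10 ± 0.47 without replicate 3.

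At the sloppy paired locus, *slp1* was at 4.04, 3.85 and 4.68 CPM in WT. With Cp190/Chro RNAi it was at 13.1, 13.7 and 14.4 CPM, in BEAF-32/Dref RNAi at 12.6, 15.7 and 14.8 CPM, and in BEAF-32 RNAi at 19.1, 19.5 and 5.12 CPM. Its log2 fold changes were 1.71 ± 0.37 (SE), 1.77 ± 0.37 and 1.81 ± 0.37, and 2.20 ± 0.17 for BEAF-32 RNAi without replicate 3. As for *inv*, all 9 knockdown libraries were above WT and replicate 3 of BEAF-32 RNAi was only slightly so.

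*slp2* was at 2.12, 1.47 and 2.42 CPM in WT. It was at 8.89, 8.62 and 7.79 CPM in Cp190/Chro RNAi, at 7.78, 6.31 and 8.44 CPM in BEAF-32/Dref RNAi, and at 7.00, 8.91 and 1.85 CPM in BEAF-32 RNAi. Here replicate 3 fell inside the WT range and the other 8 knockdown libraries were above it. The log2 fold changes were 2.06 ± 0.42, 1.90 ± 0.43 and 1.58 ± 0.43, the last 1.98 ± 0.25 without replicate 3.

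Of the genes that stand alone, *ey* was at 0.770, 0.550 and 0.167 CPM in WT, at 1.74, 1.60 and 0.902 CPM in Cp190/Chro RNAi, at 1.01, 1.49 and 1.22 CPM in BEAF-32/Dref RNAi, and at 2.33, 1.84 and 5.26 CPM in BEAF-32 RNAi. All knockdown libraries were above WT, and here BEAF-32 RNAi replicate 3 was the highest. The log2 fold changes were 1.51 ± 0.57 (SE), 1.32 ± 0.59 and 2.64 ± 0.56, and the last was 2.08 ± 0.52 without replicate 3.

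*Dll* was scarce in every group, with 3, 7 and 11 counts in the WT libraries (0.289, 0.642 and 0.919 CPM). It had 1, 2 and 0 counts in BEAF-32 RNAi, 12, 3 and 6 in Cp190/Chro RNAi, and 4, 4 and 3 in BEAF-32/Dref RNAi. The BEAF-32 RNAi libraries were all below WT, and the other knockdowns overlapped it. The log2 fold change was -2.38 ± 0.80 (SE) in BEAF-32 RNAi (-1.96 ± 0.94 without replicate 3), -0.01 ± 0.61 in Cp190/Chro RNAi and -0.59 ± 0.66 in BEAF-32/Dref RNAi.

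**Figure D2:**
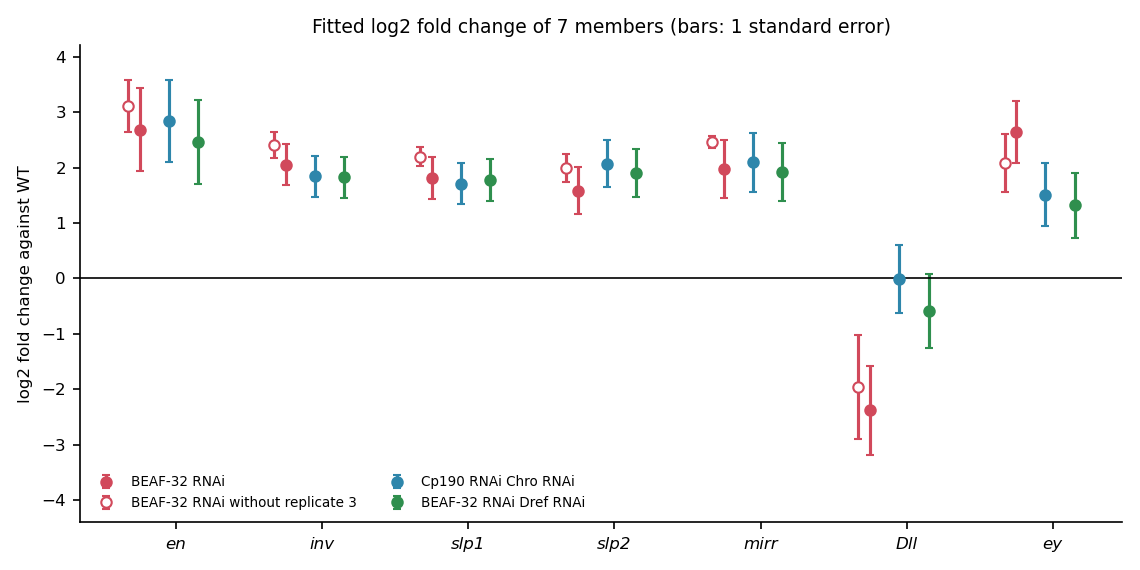
Fitted log2 fold change against WT (vertical axis) of 7 genes in the 3 knockdowns, with bars of 1 standard error. Open points leave out BEAF-32 RNAi replicate 3, and *ara* and *caup* are not drawn because WT held 1 and 0 counts. *Dll* is the only gene drawn at or below 0, at -2.38 in BEAF-32 RNAi.

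The knockdowns were then compared with each other, which the choice of genes did not use directly. With edgeR's quasi-likelihood test and Benjamini-Hochberg adjustment over all genes, 0 of the 9 genes differed between any pair of knockdowns at an adjusted p under 0.05. At an unadjusted p under 0.05 there were 2 in Cp190/Chro RNAi against BEAF-32 RNAi, 1 in BEAF-32/Dref RNAi against BEAF-32 RNAi and 0 in the comparison of the combined knockdowns, and DESeq2 also called 0 in each. Over all genes tested, 6.9%, 5.74% and 0% were called in these comparisons. *Dll* was the farthest apart, at 2.37 ± 0.80 (SE) on the log2 scale higher in Cp190/Chro RNAi than in BEAF-32 RNAi (adjusted p = 0.104). *ey* was lower by -1.13 ± 0.50 there (adjusted p = 0.21) and by -1.32 ± 0.51 in BEAF-32/Dref RNAi (adjusted p = 0.159). Without BEAF-32 RNAi replicate 3, *Dll* was at 1.95 (adjusted p = 0.0961) and *ey* at -0.57 and -0.76 (adjusted p = 0.327 and 0.182).

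These counts rested on BEAF-32 RNAi replicate 3. Without it, *inv*, *slp1* and *mirr* were called in both comparisons, 3 of 9 genes against 37.9% and 42.9% of all genes tested, and all 3 were lower in the combined knockdowns than in BEAF-32 RNAi. *mirr* was at a log2 difference of -0.38 (adjusted p = 0.000462) in Cp190/Chro RNAi and -0.55 (adjusted p = 9.07e-07) in BEAF-32/Dref RNAi. *inv* was at -0.56 (adjusted p = 0.0169) and -0.59 (adjusted p = 0.0135), and *slp1* at -0.49 (adjusted p = 0.00589) and -0.44 (adjusted p = 0.016). Their partners *en* (-0.29 and -0.66) and *slp2* (0.07 and -0.09) were not called. Between the combined knockdowns, 0 of 9 were called in this fit too, where 12.8% of all genes were, and all 9 log2 differences of the fit with every library lay between -0.58 and 0.07.

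Levels of different genes are compared here as CPM per kb of exon. In WT the order was *mirr* (4.38 ± 1.00, SD, n = 3), *slp1* (2.94 ± 0.30), *slp2* (0.853 ± 0.21), *inv* (0.364 ± 0.11), *Dll* (0.186 ± 0.095), *en* (0.134 ± 0.13), *ey* (0.133 ± 0.082), *ara* (0.0104) and *caup* (0). Each of the first 4 genes had its lowest WT library above the highest of the next, and *Dll*, *en* and *ey* overlapped. In Cp190/Chro RNAi the order began in the same way, with *mirr* at 18.7 ± 1.52, *slp1* at 9.63 ± 0.45, *slp2* at 3.60 ± 0.24 and *inv* at 1.30 ± 0.10. *en* (1.01 ± 0.068), *ey* (0.381 ± 0.12) and *caup* (0.280 ± 0.046) came next, followed by *Dll* (0.185 ± 0.12) and *ara* (0.0880 ± 0.047). Neighbours in the order overlapped from *ey* on.

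The share of each gene in the level of its pair was also computed. *slp1* made up 77.7% ± 3.03 (SD, n = 3) of the per-kb level of *slp1* and *slp2* in WT, 72.8% ± 2.24 in Cp190/Chro RNAi, 75.8% ± 4.04 in BEAF-32/Dref RNAi and 80.7% ± 2.11 in BEAF-32 RNAi. The highest Cp190/Chro RNAi library (75.2%) was just below the lowest of WT (75.9%), and the other knockdowns overlapped WT. *en* made up 43.6% ± 1.93 of the level of *en* and *inv* in Cp190/Chro RNAi, 37.0% ± 5.54 in BEAF-32/Dref RNAi and 34.1% ± 8.75 in BEAF-32 RNAi. In WT its share ran from 0% to 46.4% where *en* had 0 to 9 counts. In BEAF-32 RNAi replicate 3, the share of *slp1* (82.0%) was the highest of its group and that of *en* (24.6%) was below those of replicates 1 and 2 (35.9% and 41.8%). No annotated gene overlaps the body of any of the 9. Reads that matched several places were not counted, which can remove reads from stretches that the duplicates share.

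**Figure D3:**
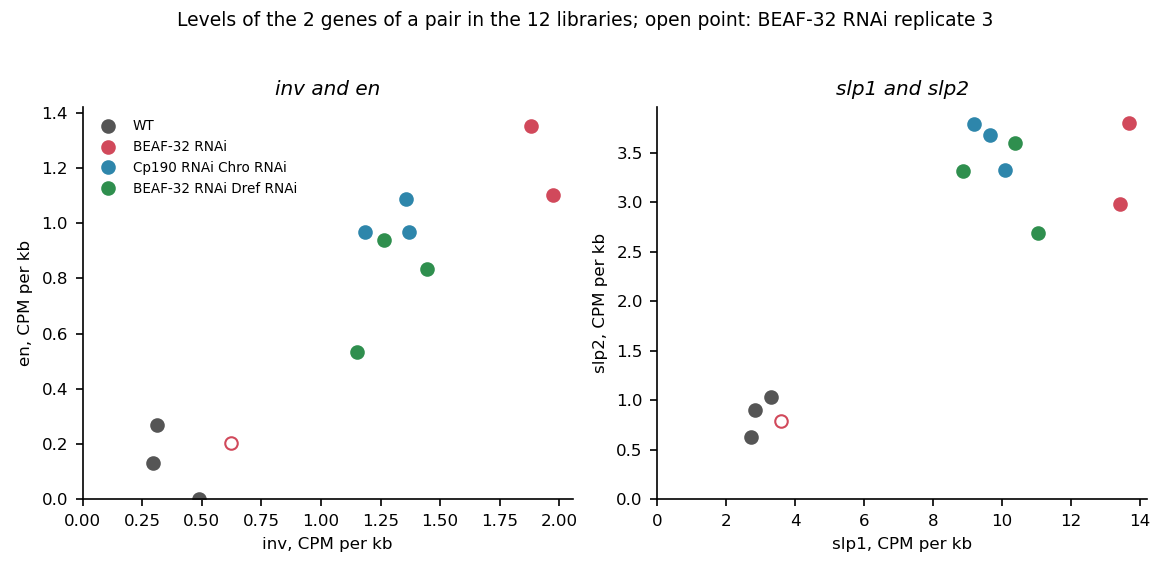
Levels of *inv* (horizontal) and *en* (vertical), and of *slp1* (horizontal) and *slp2* (vertical), in CPM per kb of exon in the 12 libraries, coloured by group. In both panels the WT libraries and BEAF-32 RNAi replicate 3 (open) lie at the lower left, and the other 8 libraries lie together at the upper right.

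The genes most like each member were taken by the Pearson correlation of log2(CPM + 1) over the 12 libraries, among 8502 genes with at least 100 counts. The correlations are a description, since all genes share the libraries and their groups. For *slp1* they were *MESR3* (r = 0.992) and *Unc-76* (0.986), and for *mirr* again *MESR3* (0.982) and *Arpc1* (0.979), which encodes a subunit of the Arp2/3 complex. *inv* was nearest to *CG31370* (0.981) and *Tollo* (0.976), a Toll family receptor, *slp2* to *Jupiter* (0.973) and *CG32699* (0.969), and *en* to *dp* (0.964) and *Sac1* (0.954). *mirr* and *slp1* had a correlation of 0.969, and *en* and *inv* one of 0.899. *ey* stood apart with *Nmnat* (0.953) and *bru-2* (0.952), at 0.103 to *mirr* and 0.430 to *inv*. *MESR3* was at 66.8 CPM in BEAF-32 RNAi replicate 3, against 64.7 to 69.2 CPM in WT and 117 to 142 CPM in the other 8 libraries, whereas *bru-2* was at 18.2 CPM there against at most 6.68 CPM elsewhere. *ara*, *caup* and *Dll* had fewer than 100 counts and were not compared.

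The sequence before the annotated start was read for each gene from the Release 6 (dm6) genome of RefSeq. It is shown for the sloppy paired pair, for *caup*, which had no WT count, and for *mirr* and *ey*, whose starts lie close to TAD borders. Each run is the 250 bases before the gene start, 5′ to 3′ on the gene's strand, with capitals marking the letters GAGAG (bound by GAGA factor), GCCAT (the core bound by Pho), CGATA (the core bound by BEAF-32) and TATCGATA (the element bound by Dref, which contains CGATA), on either strand. All 5 genes lie on the plus strand, at chr2L:3825425-3825674, chr2L:3836590-3836839, chr3L:12609381-12609630, chr3L:12693389-12693638 and chr4:697439-697688.
slp1: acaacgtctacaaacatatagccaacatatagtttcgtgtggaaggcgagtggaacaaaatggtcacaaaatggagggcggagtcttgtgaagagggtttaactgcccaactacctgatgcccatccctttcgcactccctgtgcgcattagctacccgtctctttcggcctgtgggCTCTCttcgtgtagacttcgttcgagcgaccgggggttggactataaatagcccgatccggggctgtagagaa
slp2: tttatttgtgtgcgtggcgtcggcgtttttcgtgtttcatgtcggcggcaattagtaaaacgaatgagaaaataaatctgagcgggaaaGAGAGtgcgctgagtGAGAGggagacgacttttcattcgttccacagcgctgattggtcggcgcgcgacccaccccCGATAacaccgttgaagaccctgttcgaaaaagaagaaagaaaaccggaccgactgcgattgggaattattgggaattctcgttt
caup: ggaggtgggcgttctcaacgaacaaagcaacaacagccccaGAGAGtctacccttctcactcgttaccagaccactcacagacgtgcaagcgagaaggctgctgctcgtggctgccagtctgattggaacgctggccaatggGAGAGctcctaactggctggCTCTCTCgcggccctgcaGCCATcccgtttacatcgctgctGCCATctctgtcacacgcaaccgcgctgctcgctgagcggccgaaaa
mirr: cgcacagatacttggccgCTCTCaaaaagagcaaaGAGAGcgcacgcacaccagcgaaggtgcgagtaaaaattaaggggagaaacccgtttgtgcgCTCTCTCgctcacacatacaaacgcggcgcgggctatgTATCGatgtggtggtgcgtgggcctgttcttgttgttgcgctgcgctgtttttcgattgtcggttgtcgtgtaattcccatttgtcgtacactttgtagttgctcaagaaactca
ey: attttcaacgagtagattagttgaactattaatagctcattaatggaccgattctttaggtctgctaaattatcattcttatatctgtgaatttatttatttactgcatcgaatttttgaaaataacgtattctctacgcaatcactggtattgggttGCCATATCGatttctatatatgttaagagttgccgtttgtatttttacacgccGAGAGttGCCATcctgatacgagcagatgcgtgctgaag

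GAGAG was found before 7 of the 9 genes, against 25.4% of 16210 windows of the same length before all annotated genes. *caup* and *mirr* each held 4 matches, overlapping ones counted, as did or exceeded 3.38% of all windows. GCCAT was found before 4 genes (35.8% of all windows), CGATA before 4 (40.6%) and TATCGATA before 0 (6.76%). Of the genes printed, *slp2*, *mirr* and *ey* held CGATA 1 time each. These matches are letters in a window and not measured binding.

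In the TAD lists, the genes of a pair lay within 1 domain. *inv* and *en*, with 53.7 kb between the outer ends, were in the same TAD in all 3 knockdowns, of 130 kb in BEAF-32 RNAi and BEAF-32/Dref RNAi. In Cp190/Chro RNAi that TAD was 77.1 kb long and ended 1.11 kb from the start of *en*. *slp1* and *slp2* shared a TAD of 48.9 kb in BEAF-32 RNAi, 205 kb in Cp190/Chro RNAi and 349 kb in BEAF-32/Dref RNAi. The medians over all TADs of these lists were 39.1, 44.8 and 61.3 kb.

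The iroquois complex was divided. *ara* and *caup* were in 1 TAD in all 3 knockdowns (168, 102 and 225 kb in BEAF-32 RNAi, Cp190/Chro RNAi and BEAF-32/Dref RNAi). A border lay inside the body of *mirr* in all 3, at 1.34, 1.34 and 0.846 kb from its start. The start of *mirr* was thus in the TAD of *ara* and *caup* in BEAF-32 RNAi and BEAF-32/Dref RNAi. In Cp190/Chro RNAi a further border between *caup* and *mirr* put it in a TAD of its own of 66.6 kb. The start of *ey* lay 1.02, 0.038 and 1.02 kb from a border, and that of *Dll* at least 43.8 kb from any. The stricter lists of strong TADs had no border within the span of any of the 5 loci.

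In the loop lists, 7 of the 9 genes overlapped a loop anchor in BEAF-32 RNAi, 7 in Cp190/Chro RNAi and 5 in BEAF-32/Dref RNAi, with *slp1* and *Dll* at none. Over all placed genes 11.9%, 17.3% and 7.91% overlapped an anchor, and over genes of 10 kb or more, as most of these are, 38.1%, 54.4% and 25.9%. A loop of 50 kb joined *inv* and *en* in BEAF-32 RNAi, with 102 contacts observed against 37.2 expected from the surrounding pixels. In the combined knockdowns *en* was joined to an anchor that overlapped no gene, at 60 kb (145 against 44.8) in Cp190/Chro RNAi and 58 kb (56 against 19.8) in BEAF-32/Dref RNAi. That anchor (chr2R:11468001-11470000) lay near the one at *inv* in BEAF-32 RNAi (chr2R:11476001-11478000), so a change of partner is not shown.

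Loops within the iroquois complex joined *ara* and *caup* in BEAF-32 RNAi (26 kb, 61 contacts against 22.8) and BEAF-32/Dref RNAi (24 kb, 64 against 21.1). In Cp190/Chro RNAi an anchor at *caup* was joined over 30 kb to a site within 2 kb of *ara* (167 against 46.8). *mirr* was joined over 42 kb to *CR43431* in the combined knockdowns, and in BEAF-32 RNAi over 130 kb to a site within 2 kb of *ara* (29 against 10.1). *slp2* was joined to *CG3921* in BEAF-32 RNAi and Cp190/Chro RNAi. *ey* was joined to *bt* in BEAF-32 RNAi and BEAF-32/Dref RNAi, and to *fd102C* and *Sox102F* in Cp190/Chro RNAi. The lists held 1179, 2154 and 787 loops in BEAF-32 RNAi, Cp190/Chro RNAi and BEAF-32/Dref RNAi, 1 list per knockdown, so a loop missing from a list is not shown to be absent and no difference was tested.

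**Figure D4:**
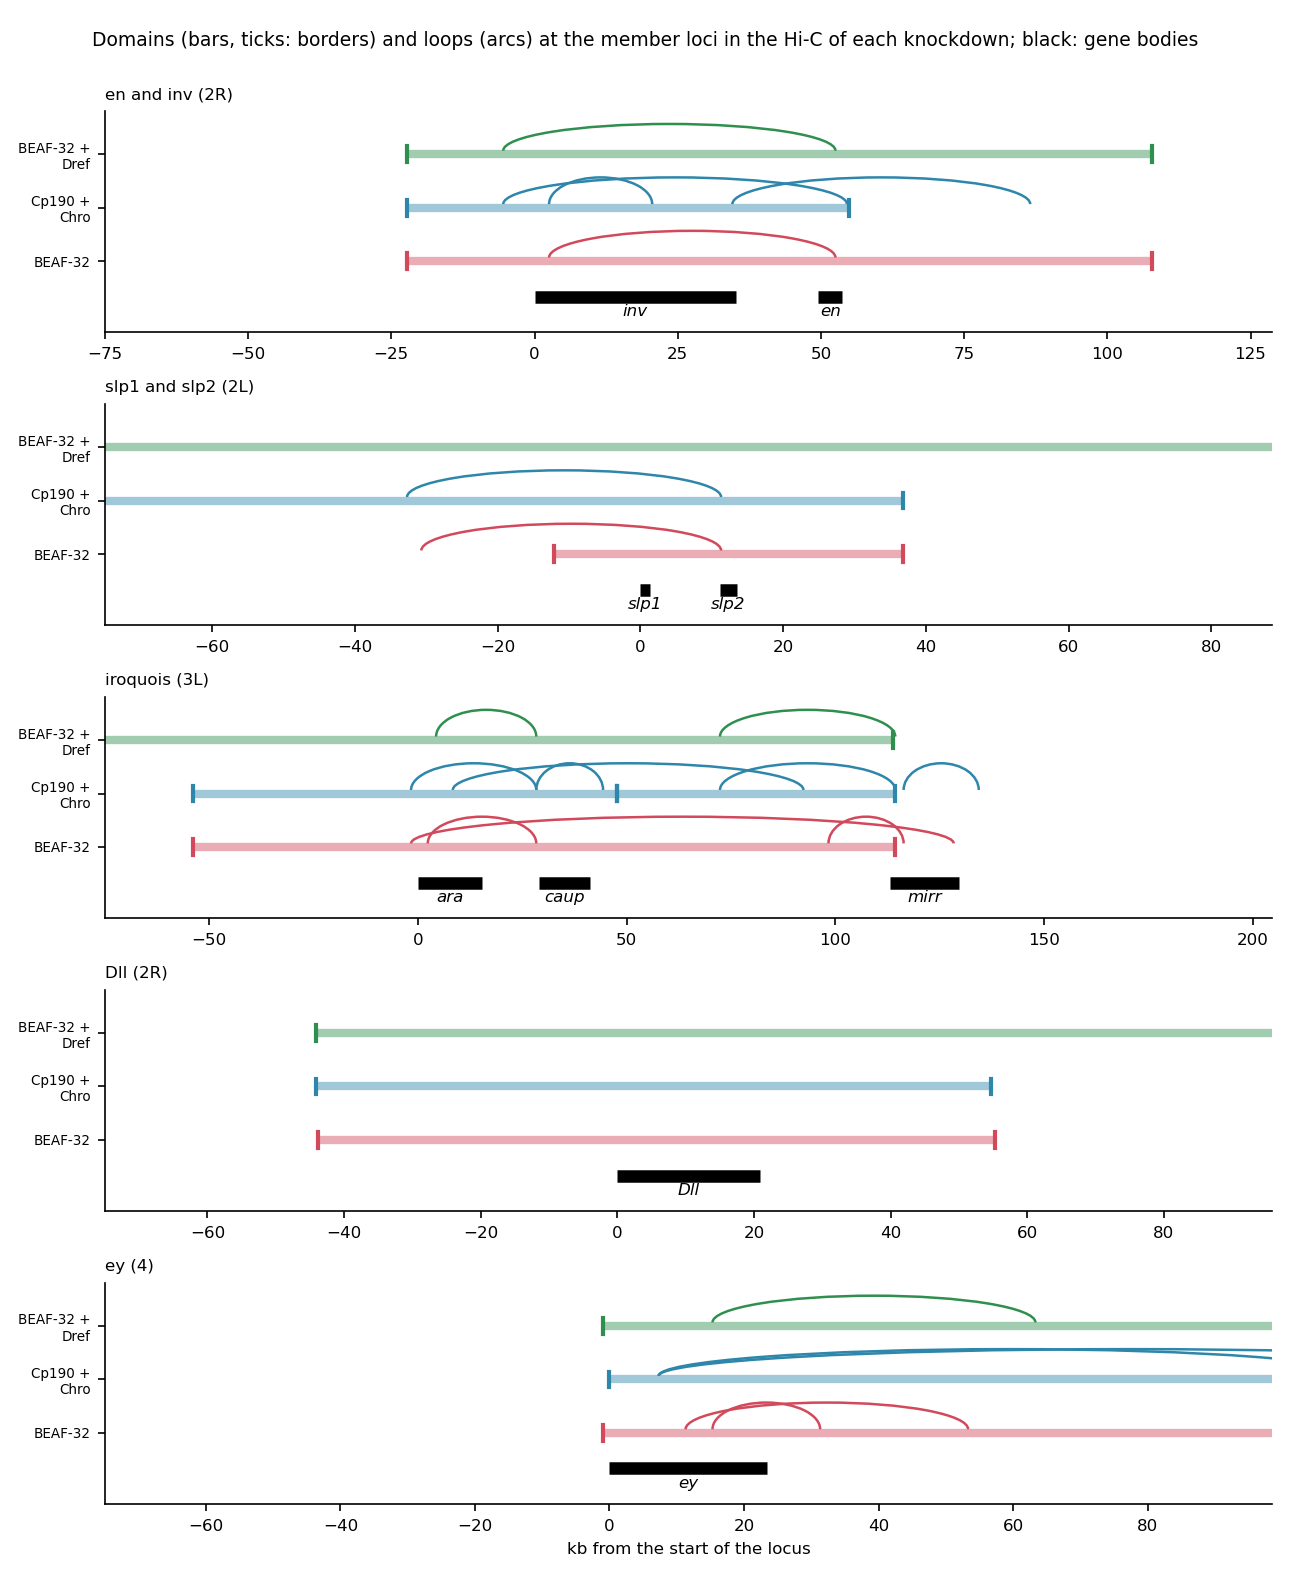
Domains that hold the start of a member (bars, with ticks at their borders) and loops with an anchor at a member (arcs) at the 5 loci in the 3 knockdowns, against distance in kb from the start of the locus, with gene bodies in black. A border lies within *mirr* in all 3 knockdowns and an arc spans *inv* to *en* or beyond in each.

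Genes near the loci were tested against WT. The nearest tested genes of the engrailed locus, *E(Pc)* and *tou*, both chromatin factors, were lower in all 3 knockdowns. *tou* fell by 0.60 ± 0.075 (log2, SE) in BEAF-32 RNAi (adjusted p = 0.000147), by 0.53 ± 0.075 in Cp190/Chro RNAi (adjusted p = 0.000362) and by 0.80 ± 0.076 in BEAF-32/Dref RNAi (adjusted p = 1.61e-05), in edgeR's test. *sowah* and *SmD1*, on either side of the iroquois complex, had log2 fold changes of 0.00 to 0.15 and were not called, nor were *CG3407* and *CR45449* beside the sloppy paired genes. Beside *Dll*, *Orc4* fell by 0.73 ± 0.17 in BEAF-32 RNAi (adjusted p = 0.00654) and by 0.54 ± 0.17 in BEAF-32/Dref RNAi (adjusted p = 0.0225), and *Atf-2* was not called. On the fourth chromosome *myo*, a TGF-beta ligand that ends 1.63 kb from *ey*, fell from 263 ± 13.0 CPM (SD, n = 3) to 152 ± 5.11 in BEAF-32 RNAi, 153 ± 9.98 in Cp190/Chro RNAi and 153 ± 1.76 CPM in BEAF-32/Dref RNAi.

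*bt*, on the other side of *ey*, encodes a giant muscle protein and was among the muscle markers. It rose from 0.722 ± 0.089 CPM in WT to 7.73 ± 0.90 in Cp190/Chro RNAi (log2 3.40 ± 0.51, SE, adjusted p = 0.000529), 11.3 ± 1.23 in BEAF-32/Dref RNAi (3.95 ± 0.51, adjusted p = 0.000151) and 8.90 ± 6.92 in BEAF-32 RNAi (3.57 ± 0.51, adjusted p = 0.000389). In BEAF-32 RNAi replicate 3 it was at 16.8 CPM, the highest of the 12 libraries, as for *ey*. Over the 106 other tested genes within 100 kb of the loci, BEAF-32 RNAi had 19 called higher and 28 called lower, with 23 and 24 in Cp190/Chro RNAi, and 25 and 29 in BEAF-32/Dref RNAi, with median log2 fold changes of 0.04, 0.06 and 0.10. The shares called over all genes were 34.2%, 33.6% and 41.8%. The engrailed window had higher medians (0.79, 1.31 and 1.29 over 12 genes), with 5, 3 and 5 called higher and 2 lower in each knockdown. Genes near silent in WT can enter the test through counts in the knockdown libraries alone, so nothing is read from these medians and higher calls. *Sod3*, *CG30026* and *CG30022* in that window, named after their values were seen, were called higher in all 3, *CG30026* at 2.34 ± 0.42, 2.32 ± 0.42 and 2.87 ± 0.41 (log2, SE). Their starts lay at -117, -91.9 and -113 kb from the centre of the locus, beyond that of *E(Pc)* at -49.3 kb.

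**Figure D5:**
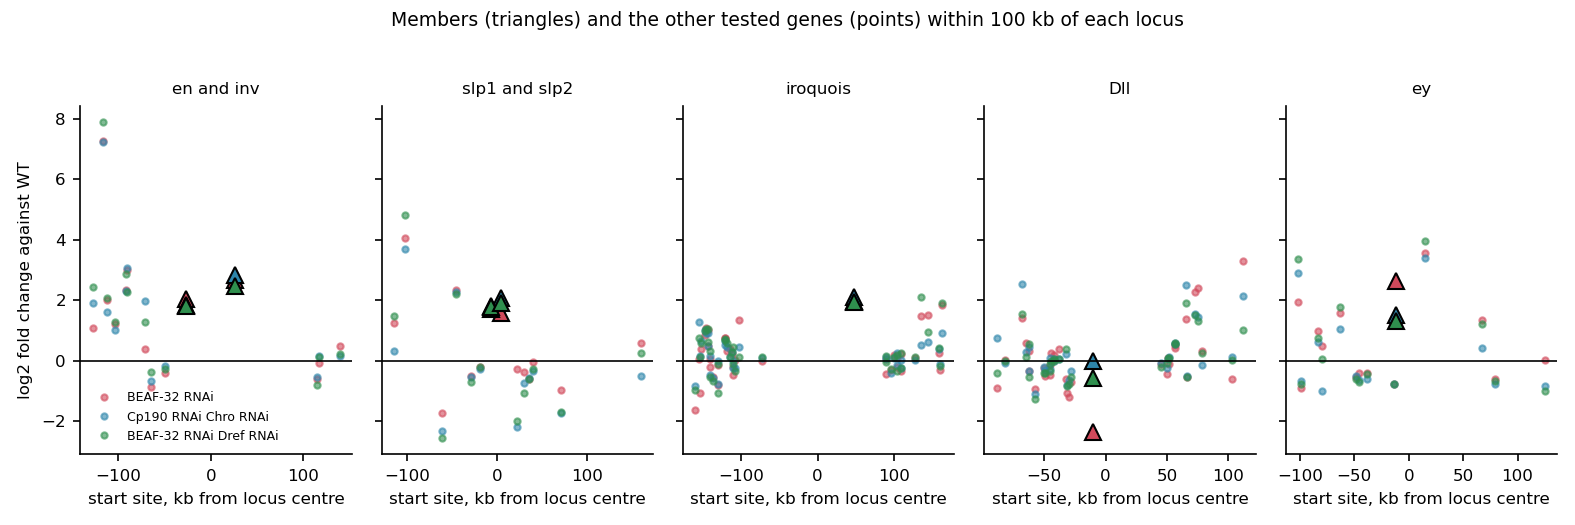
Fitted log2 fold change against WT (vertical axis) of members (triangles) and of the other tested genes (points) by distance of the start site from the centre of each locus in kb, for the 3 knockdowns. *ara* and *caup* are not drawn, and fitted values of genes without WT counts are not bounds. The points nearest the loci lie on both sides of 0, with medians of 0.04 to 0.10 over all 106 genes.

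Other transcription factor genes of the same kind were called in both directions. Of 46 genes from other duplicated loci, 10 had no count in any library and 15 were tested. In BEAF-32 RNAi 3 rose and 2 fell (median log2 1.99), in Cp190/Chro RNAi 1 and 1 (0.84), and in BEAF-32/Dref RNAi 2 and 1 (0.75). A gene near silent in WT can pass the filter of 10 counts in total through the knockdown libraries alone. This can raise the medians and the numbers called higher, so nothing is read from either. The median of 1.99 was that of *disco-r*, at 0.0306 CPM in WT, with a standard error of 1.49. The shares called higher over all genes were 18.5%, 17.9% and 21.5%, and lower 15.7%, 15.6% and 20.3%. Without BEAF-32 RNAi replicate 3, 5 rose and 2 fell in BEAF-32 RNAi. *drm*, an odd-skipped family gene, had no WT count. Its ratio to the floor of 3 WT counts was 2.90 in BEAF-32 RNAi, 4.62 in Cp190/Chro RNAi and 5.34 in BEAF-32/Dref RNAi. *bab2*, a BTB factor of the leg and ovary, fell by 0.40 ± 0.089, 0.41 ± 0.089 and 0.47 ± 0.089 (log2, SE). Its duplicate *bab1* was called lower only in BEAF-32 RNAi (-0.78 ± 0.25, adjusted p = 0.0325 in edgeR). The difference from BEAF-32 RNAi was 0.46 ± 0.25 in Cp190/Chro RNAi (adjusted p = 0.315) and 0.53 ± 0.25 in BEAF-32/Dref RNAi (adjusted p = 0.25). With that group's replicate 3 left out these were 0.61 (adjusted p = 0.0511) and 0.69 (adjusted p = 0.0251), and the second was called.

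Of 50 transcription factor genes of loci without a duplicate, 22 were tested, and 6, 6 and 8 rose and 4, 3 and 5 fell in BEAF-32 RNAi, Cp190/Chro RNAi and BEAF-32/Dref RNAi, with medians of 0.98, 0.94 and 0.59. The same limit of the count filter applies to these medians and to the numbers called higher. Without BEAF-32 RNAi replicate 3 the counts were 8, 9 and 10 higher and 7, 5 and 5 lower. *NK7.1*, a homeobox gene, rose from 18.7 CPM in WT to 44.2, 50.4 and 43.6 CPM (adjusted p = 9.98e-06, 3.38e-06 and 8.5e-06 in edgeR). *bi* (optomotor-blind), a T-box gene of wing and optic lobe, had 0.0306 CPM in WT, 2.02 CPM in Cp190/Chro RNAi (adjusted p = 0.00147) and 1.41 CPM in BEAF-32/Dref RNAi (adjusted p = 0.00248), and was also called in BEAF-32 RNAi (0.448 CPM, adjusted p = 0.0393), where 1 library held no count. *C15*, a homeobox gene of the distal leg, fell from 587 CPM to 370, 392 and 360 CPM (adjusted p = 0.000228, 0.000568 and 0.000126).

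Genes that act with the members were counted in the same way. Of 17 Hedgehog and Wingless pathway genes, which act beside *en* and *slp1* in segment polarity, 2 rose and 9 fell in BEAF-32 RNAi, 1 and 6 in Cp190/Chro RNAi, and 1 and 9 in BEAF-32/Dref RNAi. The shares called lower over all genes were 15.7%, 15.6% and 20.3%, and without BEAF-32 RNAi replicate 3 the list had 2 higher in each knockdown and 9, 10 and 10 lower. *ci*, the Hedgehog pathway transcription factor that *en* represses, was at 754 CPM in WT and fell to 429, 379 and 379 CPM (adjusted p = 1.3e-05, 3.24e-06 and 2.8e-06 in edgeR). The ligand *hh*, which *en* activates, was at 0.088 CPM in WT and 0.177 to 0.183 CPM in the knockdowns and was not called. *nkd*, an inhibitor of Wingless signalling, fell by 0.53 ± 0.11 (log2, SE) in BEAF-32 RNAi but rose by 0.73 ± 0.11 and 0.66 ± 0.11 in the combined knockdowns. That difference was itself called, at 1.26 ± 0.11 between Cp190/Chro RNAi and BEAF-32 RNAi (adjusted p = 0.000117) and 1.19 ± 0.11 between BEAF-32/Dref RNAi and BEAF-32 RNAi (adjusted p = 0.000195).

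Of 10 tested partners of the iroquois genes, 2 rose and 5 fell in BEAF-32 RNAi, and 0 rose and 4 fell in each combined knockdown, beside the same 15.7%, 15.6% and 20.3% lower over all genes. With BEAF-32 RNAi replicate 3 left out, 1, 0 and 0 rose and 5, 4 and 6 fell. *N*, the Notch receptor, fell from 595 CPM to 293, 291 and 266 CPM, and *sr*, a tendon cell factor of the notum, from 6.90 CPM to 1.12, 0.754 and 1.44 CPM. Of 8 tested genes of retinal determination and related factors, not all of them downstream of *ey*, 3, 2 and 4 rose and 0 fell. Over all genes, 18.5%, 17.9% and 21.5% were called higher. The 2 in Cp190/Chro RNAi were *hth* and *hbn*. *hbn*, called higher in all 3 knockdowns, and *eya*, called higher in BEAF-32/Dref RNAi, had no WT count and could only be called higher. Nothing is read from the counts of this list. In the fit without that library, 5, 2 and 4 rose and 1, 0 and 0 fell. *hth*, a cofactor gene, rose from 301 CPM to 367, 449 and 462 CPM (adjusted p = 0.00779, 0.000101 and 5.03e-05), and *dac*, at 0.118 CPM in WT, to 0.770 CPM in BEAF-32 RNAi (adjusted p = 0.00615) and 0.541 CPM in BEAF-32/Dref RNAi (adjusted p = 0.0153). *so* and *toy* were not called. Of 9 tested partners of *Dll*, 2, 2 and 3 rose and 4, 3 and 3 fell (3, 2 and 3 higher and the same numbers lower without that library), with *exd*, the partner of *hth*, at -0.43 ± 0.073, -0.40 ± 0.073 and -0.42 ± 0.073 (log2, SE).

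No tested gene of the Polycomb machinery was called higher. Of 20 tested, 12 fell in BEAF-32 RNAi (median log2 -0.39), 10 fell in Cp190/Chro RNAi (-0.36) and 14 in BEAF-32/Dref RNAi (-0.42), against 15.7%, 15.6% and 20.3% of all genes called lower. Without BEAF-32 RNAi replicate 3, 16 fell in each. *ph-p*, a subunit of Polycomb repressive complex 1, fell from 231 CPM to 128, 183 and 176 CPM (adjusted p = 3.75e-05, 0.013 and 0.00448 in edgeR), and *ph-d*, its own duplicate, by 0.52 ± 0.10, 0.42 ± 0.10 and 0.53 ± 0.10 (log2, SE). *pho*, the DNA-binding recruiter, fell by 0.24 ± 0.076 in BEAF-32 RNAi (adjusted p = 0.0298), 0.56 ± 0.076 in Cp190/Chro RNAi (adjusted p = 0.000263) and 0.43 ± 0.076 in BEAF-32/Dref RNAi (adjusted p = 0.00111). *Trl*, which encodes GAGA factor, fell by 0.55 ± 0.13, 0.78 ± 0.13 and 0.70 ± 0.13 in the 3 knockdowns. *E(z)*, the methyltransferase, and *Psc* were not called in any knockdown. The part of these changes in the levels of the 9 genes was not tested.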

How the data were processed

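The authors trimmed the poly(A)-selected RNA-seq reads with Trimmomatic 0.39, aligned them with TopHat2 2.1.2 and Bowtie2 2.3.4.1 to dm6, and deposited HTSeq counts per gene, whole numbers without normalization. HTSeq ran with its default strand setting, and the sources used here do not state the strand of the libraries. The study's published alignment commands pair the first-read file of replicate 1 with the second-read file of replicate 2 for each knockdown, and whether the deposited counts were made so was not tested. The paper's supplement gives replicate 2 of each knockdown its own read total. Its concordant alignment rate was in each case above the lowest rate among the other libraries. Replicates 1 and 2 of each knockdown correlated at 0.996 over genes (log2(CPM + 1)), other pairs within a group at 0.996 to 0.998, except 0.961 with BEAF-32 RNAi replicate 3. Rows that name no gene were left out: between 39.4% and 44.1% of the HTSeq entries had no feature, 0.486% to 0.598% were ambiguous and 16.0% to 29.5% were not unique. The Hi-C files hold coordinates of TADs with a deposited score, and loops with observed contact counts, expected signal and false discovery rates (q-values), made by the authors from merged replicates. TAD starts lay at midpoints of DpnII fragments of the Release 6 genome in 84.1% to 95.0% of entries, so the builds match.

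Of 16727 gene symbols, 16508 were placed in the annotation, 3996 of them through a synonym. Genes with at least 10 counts in total (10545, all 9 members among them) were fitted with edgeR 4.0.16 (TMM, quasi-likelihood F test, all 12 libraries, Benjamini-Hochberg over all genes, called at an adjusted p under 0.05) in R 4.3.3, after testing on simulated data. DESeq2 1.42.0 was an alternative. Standard errors are the log2 fold change divided by the square root of F. The members and gene lists were chosen with earlier results of these data known. Named genes were every member, up to 4 called genes per list and direction with the smallest p and no overlap with WT, the nearest tested gene on each side of a locus and the 2 genes most like each member. *E(z)*, *Psc*, *hh*, *so* and *toy* were named after their values were seen.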

Additional observations from a re-analysis of the deposited data

How the results depend on the processing

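Over all alternatives, a member's log2 fold change against WT moved by less than its standard error in the main fit in 491 values. It moved by more in 14. That standard error carries the spread of BEAF-32 RNAi replicate 3. For *mirr* in BEAF-32 RNAi it was 0.52 with this library and 0.10 without it. Members called between knockdowns ranged from 0 to 3 when 1 library was left out, for each combined knockdown against BEAF-32 RNAi, with 3 only without BEAF-32 RNAi replicate 3. The log2 differences of *inv*, *slp1* and *mirr* changed sign with the library left out, and those of *Dll* and *ey* did not. For Cp190/Chro RNAi they ran from -0.56 to 0.027 for *inv*, -0.49 to 0.15 for *slp1* and -0.38 to 0.46 for *mirr*, and for BEAF-32/Dref RNAi from -0.59 to 0.00746, -0.44 to 0.22 and -0.55 to 0.29. The negative ends were without BEAF-32 RNAi replicate 3 and the positive ends without its replicate 1 or 2. With the replicate number as a block, the BEAF-32/Dref values of *slp1* and *mirr* were 0.017 and 0.051. Whether the replicate numbers pair the samples is not known. Deviations from the group means correlated at -0.177 to 0.0687 between same-numbered libraries and at -0.123 to 0.201 between others, which cannot exclude pairing. The block otherwise moved only the other paired genes called higher in BEAF-32 RNAi, to 1. The median of the members in Cp190/Chro RNAi was 1.89 to 2.22 with 1 library left out.

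For the other paired genes, edgeR's filterByExpr left 0 called higher in each knockdown, DESeq2 gave 1 in BEAF-32/Dref RNAi, and fits of only the groups compared gave 0 higher and 1 lower for BEAF-32 RNAi, with 1 higher for BEAF-32/Dref RNAi. With 1 library left out, BEAF-32 RNAi had 1 to 5 higher and 1 to 2 lower, with 1 to 2 higher in BEAF-32/Dref RNAi. For the genes without a duplicate, fits of only the groups compared gave 3 higher in BEAF-32 RNAi and 10 higher and 5 lower in Cp190/Chro RNAi, filterByExpr gave 5 higher in BEAF-32/Dref RNAi, and with 1 library left out 3 to 7 were lower in BEAF-32 RNAi, 2 to 5 lower in Cp190/Chro RNAi, and 4 to 10 higher and 3 to 5 lower in BEAF-32/Dref RNAi. Over all genes, fits of only the groups compared called 1479 in BEAF-32 RNAi (3611 with all groups) and 5918 in Cp190/Chro RNAi (3538), which leaving out 1 library moved from 2374 to 5981. The strong TAD lists had 0 borders inside the loci in each knockdown, against 1, 2 and 1. Depth limits *ara*, *caup* and *Dll*, with 21, 88 and 56 counts in all 12 libraries.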

Other observations

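Marker genes of other cell types that could be present were also tested, all from lists chosen with earlier results known, in edgeR's test against WT. Of 6 tested hemocyte markers, 3, 1 and 0 rose and 0, 0 and 1 fell in BEAF-32, Cp190/Chro and BEAF-32/Dref RNAi. Of 5 tested glial markers, 0, 0 and 1 rose and 0 fell. The hemocyte marker *lz*, called higher in BEAF-32 and Cp190/Chro RNAi, had no WT count, nor had the glial *gcm*, called higher in BEAF-32/Dref RNAi. Both could only be called higher, so nothing is read from these counts. Over all genes, 18.5%, 17.9% and 21.5% were called higher and 15.7%, 15.6% and 20.3% lower. Without BEAF-32 RNAi replicate 3, 4, 2 and 0 hemocyte markers rose and 1 fell in each, and 1, 3 and 3 glial markers rose and 2, 1 and 0 fell. Of 5 tested neuron markers, 1 rose in each knockdown and 0 fell, with that library or without it. This was *Cha*, with no WT count, in BEAF-32 RNAi and *elav* in the combined knockdowns. Of 5 tested neuroblast markers, 3, 2 and 2 rose and 1 fell in each (3, 3 and 2 higher without that library). *dpn* was called higher in BEAF-32 RNAi (2.23 ± 0.74, log2, SE, adjusted p = 0.0364). *insc*, which encodes an adaptor of asymmetric division, rose from 2.27 CPM in WT to 32.9 ± 28.8 (SD, n = 3) with BEAF-32 RNAi, 12.7 ± 1.29 with Cp190/Chro RNAi and 19.6 ± 1.98 CPM with BEAF-32/Dref RNAi (adjusted p = 0.000284, 0.00457 and 0.000907 in edgeR). The BEAF-32 RNAi libraries ran from 15.9 to 66.1 CPM. The log2 difference of Cp190/Chro RNAi from BEAF-32 RNAi was -1.36 (adjusted p = 0.0949), and -0.36 (adjusted p = 0.0621) without BEAF-32 RNAi replicate 3. *pros*, a homeobox gene of differentiating daughter cells, at 2.08 CPM in WT, rose by 2.39, 1.87 and 2.07 on the log2 scale (adjusted p = 0.000107, 0.000544 and 0.000229). *mira*, whose product carries Prospero protein to the daughter cell, fell from 37.4 CPM to 2.93, 2.94 and 1.91 CPM (adjusted p = 0.000111, 9.16e-05 and 4.16e-05).

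Of the 6 muscle markers, 3 rose and 1 fell in each knockdown. Over all genes, 18.5%, 17.9% and 21.5% were called higher and 15.7%, 15.6% and 20.3% lower. Without BEAF-32 RNAi replicate 3, 3 rose in each and 2, 1 and 2 fell. *sls* rose from 17.9 CPM to 63.6, 85.3 and 67.9 CPM (adjusted p = 0.00452, 0.00131 and 0.00258) and *Mhc*, the muscle myosin heavy chain, from 0.0905 CPM to 2.46, 1.47 and 1.21 CPM (adjusted p = 0.000868, 0.00322 and 0.00435). *Mef2*, the muscle transcription factor, fell from 146 CPM to 125, 121 and 121 CPM (log2 -0.23, -0.27 and -0.27, adjusted p = 0.0278, 0.0127 and 0.0107).

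Of 7 tested markers of disc epithelium, 2, 1 and 1 rose and 1, 0 and 0 fell. With the shares over all genes at 18.5%, 17.9% and 21.5% higher and 15.7%, 15.6% and 20.3% lower, nothing is read from these counts. Without BEAF-32 RNAi replicate 3, 3, 1 and 1 rose and 1, 0 and 1 fell. The apical polarity gene *crb* rose from 3.73 CPM to 12.1, 13.9 and 16.2 CPM (adjusted p = 0.000169, 6.84e-05 and 2.67e-05). *Fas3*, a septate junction adhesion protein, was called lower in BEAF-32 RNAi (-0.55 ± 0.14, log2, SE, adjusted p = 0.0132).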
